A study of Mus musculus with 69 samples.

Results

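The genes described here encode proteins of the cytosolic ribosome. They are the genes of the deposited count table whose symbol has the form Rpl, Rps or Rplp followed by a number and at most 1 letter, and that have at least 10 counts in at least 7 libraries. The rule gave 34 genes out of 9930 complete gene records, 20 of the large subunit and 14 of the small, and no gene with such a symbol failed the count limit. The table as held covers chromosomes 1 to 7 and part of chromosome 8, and 14 of the 34 genes lie on chromosome 7. Ribosomal protein genes elsewhere in the genome were not analysed here.

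The study sequenced RNA of the hippocampus, a forebrain region of learning and memory, from 69 male mice with 1 library per animal. The mice were wildtype or knockout for Cdh13, which encodes T-cadherin, a cadherin held in the membrane by a lipid anchor. Whole litters were either taken from the dam for 3 h on each day from postnatal day 1 to 14 (separated) or only handled (control). Tissue was taken at weaning on day 22 (P22) or in adulthood on day 66 (P66). The 8 groups cross genotype, rearing and age. At P22 there were 8 control and 11 separated wildtypes and 9 control and 10 separated knockouts, and at P66 the same groups held 7, 10, 7 and 7 animals. The labels give no strain, no detail of the knockout allele and no litter, and they place each animal in 1 of 2 breeding cohorts. Cdh13 lies outside the held records, so its level was not analysed here and the genotype labels stand unchecked. Of 14 neuronal marker genes 9 were held and none was at 0 throughout. Their summed level lay between 12580.1 and 16536 CPM (the count per fixed total of the held records, after TMM scaling) over all libraries. CPM values here are thus not comparable with those of full libraries.

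Ribosomal proteins assemble with ribosomal RNA in the nucleolus into a small subunit, which reads the mRNA, and a large subunit, which joins amino acids. In most cells their mRNAs rank among the most abundant, and many begin with a cytosine followed by a run of pyrimidines. This terminal oligopyrimidine run, called TOP, lets the mTOR kinase and the protein Larp1 set how actively the mRNAs are translated. Many of the genes carry small nucleolar RNA (snoRNA) genes in their introns, and neurons also place these mRNAs in dendrites and axons.

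Sequence around the transcription start was available for 26 of the 34 genes from RefSeq on GRCm38.p6. The windows below span 14 bases before the start to 15 after it. They are shown because many genes of the family have a pyrimidine run at the start. They belong to the genes with the largest rise and the largest fall between the ages, and to Rps6. Capitals mark a run of 8 or more C or T that lies in the window.
Rpl27a: acttcgtgagCTCCTCCCTTTTCCCTTTCT
Rps27: tttccgctttcgCTCCTTTCCggcggtgac
Rps21: accgaggacccgccctcctgcccaatagtg
Rps6: agcggaagtcgggCCTCTTTTTCgtgacgc
Rplp0: tcttcgggtttcgaggaccgcctggttctc
Rpl18: gcgtctcgcaggccgCTCTTTCCCCgccca
Rpl7a: TTCCCTCTTCTTTCTTTCTCCagcagccga
The windows lie at chr7:109519181-109519210, plus strand for Rpl27a, chr3:90213633-90213662, minus strand for Rps27, chr2:180257365-180257394, plus strand for Rps21 and chr4:86857352-86857381, minus strand for Rps6. Those of the genes that fell lie at chr5:115559453-115559482, plus strand for Rplp0, chr7:45718057-45718086, plus strand for Rpl18 and chr2:26910793-26910822, plus strand for Rpl7a. Rps21 has a second RefSeq start, and the first in the table is shown. The longest run within 25 bases of the start was 21 bases in Rpl7a, 20 in Rpl27a, 10 in Rps6, and 7 in both Rplp0 and Rps21. A run of at least 8 lay within 25 bases of the start in 15 of 26 genes (57.7%), against 22.3% of 27025 mouse genes in the same table. Those 27025 genes were not limited to genes tested here. Among the matched genes, 7 of 12 that rose with age, 3 of 5 that fell and 5 of 9 others had such a run. A run counted in this way need not lie at the start. In Rpl31 it began at position -18 from the start and held 13 bases, and in Rpl11 it began at position 13. The RefSeq starts were not checked in these data.

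Motifs known from promoters of this family were searched on both strands from 250 bases before to 50 after the start, each counted by itself where motifs overlap. The ETS-type core CCGGAAG occurred in 9 of 26 genes (34.6%) and in 9.93% of all genes. The YY1-type motif AAGATGGC occurred in 4 (15.4%, against 3.19%), and the GC box GGGCGG in 16 (61.5%, against 38.2%). TATAAA occurred in 2 (7.69%, against 15.7%) and the E-box CACGTG in 3 (11.5%, against 8.09%). The 150 bases before the start are printed for the gene with the largest fall and for 3 that rose, with CCGGAAG, AAGATGGC and GGGCGG (or its reverse complement CCGCCC) in capitals.
Rplp0: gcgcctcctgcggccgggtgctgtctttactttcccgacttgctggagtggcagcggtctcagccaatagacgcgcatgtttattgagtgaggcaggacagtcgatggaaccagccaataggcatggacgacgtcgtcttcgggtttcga
Rpl27a: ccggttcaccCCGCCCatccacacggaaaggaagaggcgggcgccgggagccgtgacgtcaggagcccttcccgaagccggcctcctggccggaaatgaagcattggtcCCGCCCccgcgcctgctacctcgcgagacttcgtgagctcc
Rps27: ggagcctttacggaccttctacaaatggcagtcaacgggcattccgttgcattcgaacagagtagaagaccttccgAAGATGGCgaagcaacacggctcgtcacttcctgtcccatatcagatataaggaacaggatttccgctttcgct
Rps21: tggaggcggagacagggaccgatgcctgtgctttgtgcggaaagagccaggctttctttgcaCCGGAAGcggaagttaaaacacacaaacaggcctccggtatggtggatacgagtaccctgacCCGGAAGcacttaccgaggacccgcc
These stretches lie at chr5:115559317-115559466, plus strand for Rplp0, chr7:109519045-109519194, plus strand for Rpl27a, chr3:90213649-90213798, minus strand for Rps27 and chr2:180257229-180257378, plus strand for Rps21. Rplp0 held none of the 3 motifs in this stretch, Rpl27a held CCGCCC at 2 places, Rps27 held AAGATGGC once and Rps21 held CCGGAAG at 2 places. A match describes the letters only, and the shares of all genes were not limited to genes tested here.

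The libraries, over the held records, had totals of 11.3 to 16.4 M counts, and the 34 genes took 0.974 to 1.482% of them (median 1.14%). The lowest count of any of them in any library was 1768 and the highest 11121, so counting error was small beside the spread between animals. That spread had a median SD over the 34 genes of 0.13 on the log2 CPM scale (range 0.077 to 0.17), and over all 7131 tested genes a median of 0.15. In 5 libraries nearly the whole set stood apart upward. Their median deviation over the 34 genes from the median library of the same age exceeded 0.25 on the log2 scale. These were the P22 control knockout animals C1-4 and C2-43 (cohort, then animal number), the P22 separated wildtype animal C1-51, the P22 separated knockout animal C2-23 and the P66 separated knockout animal C1-56. Results that rest on them are given with and without them. They were picked by the level of these same genes, and only upward, so refits without them are shifted by that choice.

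Levels between genes were compared per kilobase of coding sequence, since reads were counted per gene. A count per gene can include reads from untranslated parts, so the order and range below depend on the length used. Annotated mRNA lengths were, for example, 394 bases in Rps21, 1158 in Rpl27a and 3706 in Rps20. The coding lengths of these 3 genes were 249, 444 and 357 bases. Levels per mRNA length were not computed. Rps21 and Rpl27a were highest, at 1024 ± 129 and 1024 ± 100.5 CPM per coding kilobase (SD, n = 69). Rpl31, Rpl13a, Rpl9 and Rps27 followed, between 926 and 983. Rpl18 was lowest at 375 ± 46.6, and Rps13 next at 486 ± 38.5. The whole family thus lay within a 2.73-fold range of this level, and both subunits were spread over it, with medians of 623 for large-subunit and 616 for small-subunit genes. Neighbours in this order mostly differed by less than their SD, for example Rpl9 at 930.1 ± 86.5 and Rps27 at 926 ± 100.5. These SDs hold deviations shared by the genes of a library and differences between the ages. They do not measure how certain the order of neighbours is. Mouse ribosomal protein genes have many processed pseudogenes, and how reads shared with them were counted is not given in the sources used here, so levels between genes are uncertain to that extent.

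A snoRNA gene on the same strand lay within the span of 15 of the 34 genes (44.1%), against 1.42% of the 7131 tested genes. There were 28 such snoRNA genes, among them Snord32a, Snord33, Snord34 and Snord35a in Rpl13a, and Snord15a and Snord15b in Rps3. Of the genes that rose with age 5 of 14 held one, of those that fell 1 of 5, and of the others 9 of 15.

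From P22 to P66 the ribosomal protein mRNAs moved in both directions by small amounts, and Rplp0 moved most. Averaged over the 4 groups of genotype and rearing, 14 of the 34 genes rose and 5 fell (edgeR quasi-likelihood, Benjamini-Hochberg adjusted p under 0.05 over 7131 genes). Among all tested genes 26.2% rose and 25.8% fell, 52% in all, and of the 34 genes 19 were called. In cohort 1 alone 10 of the 34 rose and 2 fell (14.3% and 15.8% of all tested genes). In cohort 2 alone 3 rose and 6 fell (18.8% and 19.6% of all). Without the 5 libraries named above 18 rose and 5 fell (26.5% and 27.5% of all). Most of the 5 are P22 libraries picked for high levels of these genes, so this refit leans toward rises by that choice. The median log2 change over the 34 genes was 0.050, beside 0.0089 for all tested genes. Their changes lay within -0.30 and 0.15 on the log2 scale, which is at most 1.23-fold in either direction. By subunit, 8 of 20 large-subunit genes rose and 4 fell, and 6 of 14 small-subunit genes rose and 1 fell.

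**Figure D1:**
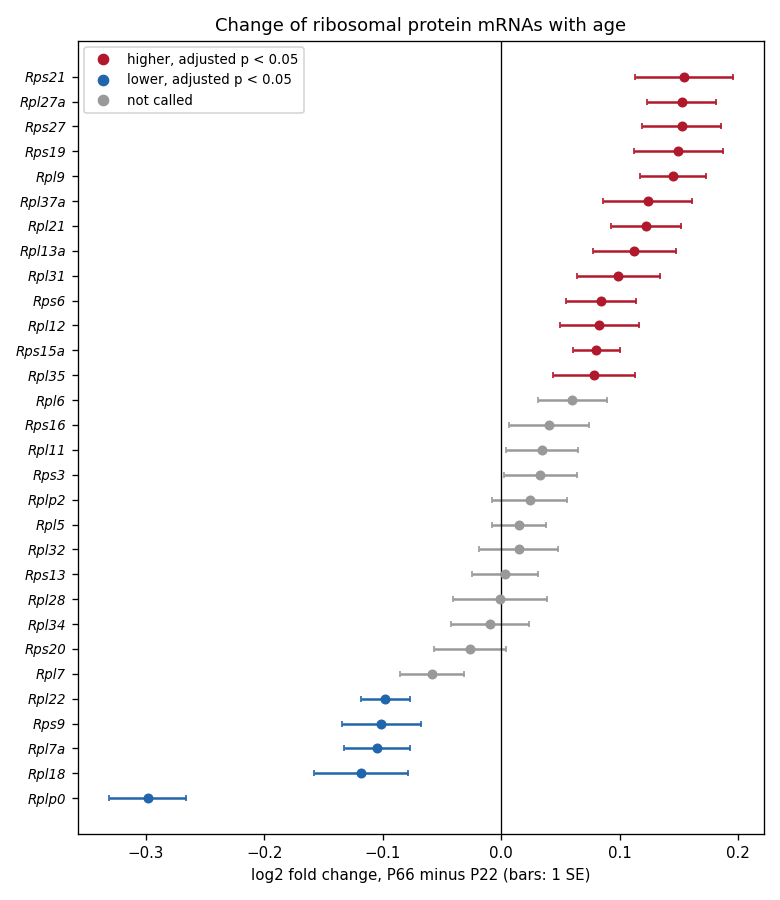
Log2 fold change between P66 and P22 (x axis) for 30 of the 34 ribosomal protein genes (rows), averaged over genotype and rearing, with bars of 1 SE from the fit over 69 libraries. Red points rose, blue points fell and grey points did not pass the threshold. Rplp0 at -0.30 lies apart from Rpl18 at -0.12, the next lowest.

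Rplp0 encodes the protein that anchors the stalk of the large subunit, where translation factors bind, and its mRNA is widely used as a reference in quantitative PCR. At P22 its lowest, median and highest levels were 432, 506 and 554 CPM in control wildtype animals, 487, 525.9 and 654 CPM in separated wildtype animals, 457, 527 and 634 CPM in control knockout animals and 427, 531 and 647 CPM in separated knockout animals. At P66 they were 381, 419 and 468 CPM in control wildtype animals, 367, 412 and 466.1 CPM in separated wildtype animals, 369, 419.5 and 464 CPM in control knockout animals and 387, 465 and 569 CPM in separated knockout animals. Every group median was lower at P66. The ages were apart in separated wildtypes, and in the other 3 groups the highest P66 animal reached into the P22 range. The share of all tested genes apart within separated wildtypes was not computed. The change was -0.30 ± 0.033 (log2, SE), a fall of 1.23-fold (edgeR adjusted p = 5.17e-12). It was -0.28 in cohort 1 alone and -0.33 in cohort 2 alone. It stayed called in all 11 alternative settings tried and in all 69 fits that left out 1 library.

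The other genes that fell did so by less. Rpl18 and Rpl7a are structural proteins of the large subunit. Rpl18 changed by -0.12 ± 0.040 (edgeR adjusted p = 0.00965) and Rpl7a by -0.10 ± 0.028 (edgeR adjusted p = 0.00113). For Rpl18 the lowest, median and highest levels at P22 were 169.9, 211 and 223 CPM in control wildtype animals, 199.5, 217 and 266 CPM in separated wildtype animals, 193, 222 and 274 CPM in control knockout animals and 175, 219.5 and 298 CPM in separated knockout animals. At P66 they were 184, 199.7 and 217 CPM in control wildtype animals, 168, 202 and 218 CPM in separated wildtype animals, 161, 202 and 219 CPM in control knockout animals and 166, 223 and 282 CPM in separated knockout animals. For Rpl18 the median was higher at P66 in 1 of 4 groups, and the ranges of the ages overlapped in all 4 groups. For Rpl7a the P22 values were 359, 414 and 435 CPM in control wildtype animals, 398, 426 and 498 CPM in separated wildtype animals, 379.9, 424 and 512 CPM in control knockout animals and 359, 429 and 514 CPM in separated knockout animals. The P66 values of Rpl7a were 365, 391 and 422 CPM in control wildtype animals, 355, 385 and 409 CPM in separated wildtype animals, 361, 398 and 419 CPM in control knockout animals and 374, 416 and 510.0 CPM in separated knockout animals. The medians of Rpl7a were lower at P66 in all 4 groups, least in separated knockout animals. Rps9, which lies where mRNA enters the small subunit, changed by -0.10 ± 0.033 (edgeR adjusted p = 0.00849). Rpl18, Rpl7a and Rps9 were called in cohort 2 alone and not in cohort 1 alone, where their changes were -0.077, -0.080 and -0.066. With choroid plexus and myelin marker scores in the fit none of the 3 was called, at -0.0086, -0.038 and 0.018 (edgeR adjusted p = 0.962, 0.696 and 0.891).

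Rpl22, a large-subunit protein that cells can do without, changed by -0.098 ± 0.021 (edgeR adjusted p = 5.37e-05), and was called in both cohorts. Over all groups it had a median of 236 CPM at P22 (38 animals, 218 to 280.4) and 221 CPM at P66 (31 animals, 208 to 254). By group, the lowest, median and highest Rpl22 levels at P22 were 219, 234 and 249 CPM in control wildtype animals, 225, 236 and 280.4 CPM in separated wildtype animals, 221, 246 and 279 CPM in control knockout animals and 218, 236 and 267 CPM in separated knockout animals. At P66 the Rpl22 values were 208, 221 and 237 CPM in control wildtype animals, 210.3, 220.1 and 247 CPM in separated wildtype animals, 214, 222 and 237 CPM in control knockout animals and 216, 225 and 254 CPM in separated knockout animals. For Rpl22 the median was lower at P66 in all 4 groups, and the ranges of the ages overlapped in all 4 groups. Its paralog Rpl22l1, which can take its place in the ribosome and lies outside the naming rule, moved the other way by 0.29 ± 0.029 (log2, SE, edgeR adjusted p = 2.94e-13). Rpl22l1 was called higher in each of the 4 groups taken alone, by 0.21 to 0.38. Of the 8 ribosomal genes listed outside the rule only Rpl22l1 and Rps3a1 were held, and Rps3a1 also rose, by 0.11 ± 0.024 (edgeR adjusted p = 6.57e-05).

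**Figure D2:**
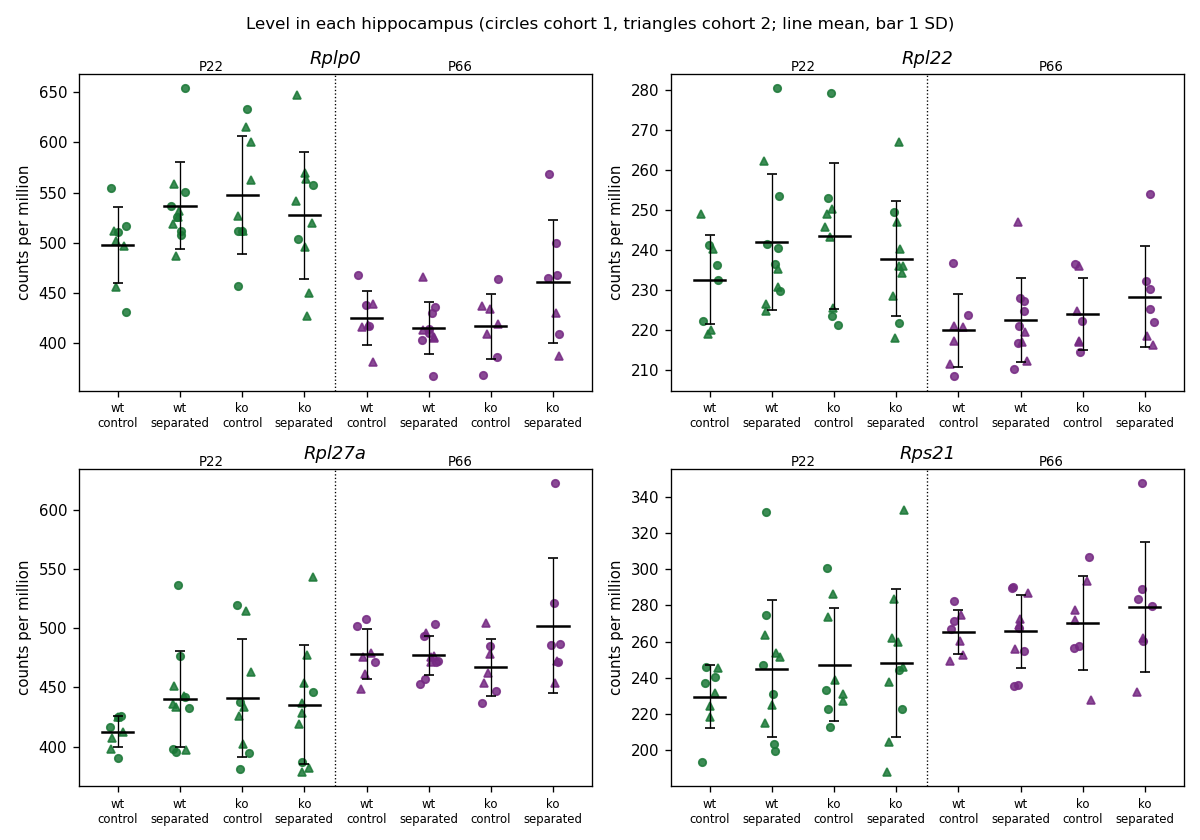
Level of Rplp0, Rpl22, Rpl27a and Rps21 in CPM (y axes, which do not start at 0) in each animal of the 8 groups (x axis). Points are animals (circles cohort 1, triangles cohort 2, green P22, purple P66), lines are group means and bars 1 SD. Rplp0 and Rpl22 sit lower at P66, and Rpl27a and Rps21 higher, with overlap between the ages.

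The largest rises were in Rps21, Rpl27a and Rps27. Rps21 is a small protein of the small subunit, Rpl27a a core protein of the large subunit, and Rps27 a zinc-binding protein of the small subunit. Rps21 changed by 0.15 ± 0.041 (edgeR adjusted p = 0.00117). Its lowest, median and highest levels at P22 were 193, 234 and 246 CPM in control wildtype animals, 199, 247 and 331 CPM in separated wildtype animals, 213, 233 and 301 CPM in control knockout animals and 188, 245 and 333 CPM in separated knockout animals. At P66 the Rps21 values were 249, 267 and 282 CPM in control wildtype animals, 235, 268 and 290.4 CPM in separated wildtype animals, 228, 272 and 307 CPM in control knockout animals and 232, 279.8 and 347 CPM in separated knockout animals. In control wildtype animals the Rps21 levels of the ages did not overlap, and in the other 3 groups they did.
Rpl27a changed by 0.15 ± 0.029 (edgeR adjusted p = 9.74e-06). Its P22 values were 390.5, 415 and 426 CPM in control wildtype animals, 395, 436 and 536 CPM in separated wildtype animals, 381, 433 and 519.8 CPM in control knockout animals and 379, 433 and 544 CPM in separated knockout animals. Its P66 values were 448, 476 and 508 CPM in control wildtype animals, 453, 474 and 503 CPM in separated wildtype animals, 437, 462 and 505 CPM in control knockout animals and 454, 486 and 622 CPM in separated knockout animals. Again only control wildtype animals showed no overlap between the ages.
Rps27 changed by 0.15 ± 0.033 (edgeR adjusted p = 9.75e-05). Its P22 values were 187, 211 and 223 CPM in control wildtype animals, 196, 222 and 292 CPM in separated wildtype animals, 185, 218 and 276 CPM in control knockout animals and 190.2, 223 and 286 CPM in separated knockout animals. Its P66 values were 223, 246 and 260.3 CPM in control wildtype animals, 219, 249 and 264 CPM in separated wildtype animals, 230.2, 238 and 262 CPM in control knockout animals and 229, 251 and 319 CPM in separated knockout animals. Here too the ages were apart in control wildtype animals, though by under 1 CPM, and in the other groups the highest P22 animal passed the P66 median.
Among all 7131 tested genes 0.505% had no overlap in CPM between the 38 P22 and 31 P66 libraries, and none of the 34 ribosomal protein genes did. Within a single group of genotype and rearing this share was not computed. With so few animals per group, ages that lie apart there only describe the gene named and are not set against other genes. Rpl27a and Rps27 were called in both cohorts alone and in all 11 alternative settings. Rps21 was called in 10 of the 11, with 0.10 and an edgeR adjusted p of 0.151 in cohort 2 alone.

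Apart from these 3, the genes that rose changed by 0.078 to 0.15 on the log2 scale. They include Rps19, which is mutated in Diamond-Blackfan anaemia (0.15 ± 0.037, edgeR adjusted p = 5.59e-04), and Rpl9 (0.14 ± 0.028, edgeR adjusted p = 1.30e-05). Rpl37a, Rpl21, Rpl13a and Rpl31 rose by 0.099 to 0.12. Rpl31 lies at the exit of the peptide tunnel, as does Rpl35. Rpl12 (at the base of the stalk), Rps15a and Rpl35 rose by 0.078 to 0.083. Of these genes 4 are also named by their p in other comparisons. For Rpl9 the lowest, median and highest levels at P22 were 446, 490.1 and 515 CPM in control wildtype animals, 449, 521 and 628 CPM in separated wildtype animals, 465, 511 and 585 CPM in control knockout animals and 458, 511 and 627 CPM in separated knockout animals. Its P66 values were 524, 551 and 603 CPM in control wildtype animals, 533, 564 and 597 CPM in separated wildtype animals, 505, 539 and 604 CPM in control knockout animals and 502, 569 and 709.5 CPM in separated knockout animals. For Rpl9 the median was higher at P66 in all 4 groups, and the ranges of the ages were apart in control wildtype animals and overlapped elsewhere. For Rpl21, the P22 values were 364, 399.8 and 408 CPM in control wildtype animals, 366, 420.1 and 511 CPM in separated wildtype animals, 367, 408 and 490.2 CPM in control knockout animals and 342, 408 and 516 CPM in separated knockout animals. Those at P66 were 408, 440.0 and 473 CPM in control wildtype animals, 418, 439 and 475 CPM in separated wildtype animals, 406, 434 and 461 CPM in control knockout animals and 429, 456 and 569.9 CPM in separated knockout animals. For Rpl21 the median was higher at P66 in all 4 groups. The ranges of the ages barely missed each other in control wildtype animals (up to 407.70 CPM at P22, from 408.06 CPM at P66) and overlapped elsewhere. The share of all tested genes apart within control wildtypes was not computed. Libraries deviated in nearly all ribosomal protein genes together, so genes apart in this group are not separate observations.
Rpl31 had P22 values of 314, 344 and 372 CPM in control wildtype animals, 324, 354 and 443 CPM in separated wildtype animals, 303, 345 and 454 CPM in control knockout animals and 306, 355 and 489 CPM in separated knockout animals. It had P66 values of 349.6, 374 and 395 CPM in control wildtype animals, 355, 372 and 411 CPM in separated wildtype animals, 344, 365 and 420.4 CPM in control knockout animals and 348, 389 and 520.3 CPM in separated knockout animals. For Rpl31 the median was higher at P66 in all 4 groups, and the ranges of the ages overlapped in all 4 groups. Rps15a had P22 values of 289, 306 and 328 CPM in control wildtype animals, 273, 307 and 360.4 CPM in separated wildtype animals, 276, 309.8 and 338 CPM in control knockout animals and 273, 309.9 and 350.4 CPM in separated knockout animals. It had P66 values of 309, 325 and 331 CPM in control wildtype animals, 318, 326 and 349 CPM in separated wildtype animals, 309, 321 and 332 CPM in control knockout animals and 307, 327 and 349.6 CPM in separated knockout animals. For Rps15a the median was higher at P66 in all 4 groups, and the ranges of the ages overlapped in all 4 groups. Rps15a had the smallest SD between animals of the family.
Rpl35 was nearest to the threshold (edgeR adjusted p = 0.049) and kept its call in 21 of the 69 fits that left out 1 library. Rpl12 kept it in 53 of 69, and the other 17 called genes in all 69.

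Rps6, the small-subunit protein phosphorylated by the S6 kinases downstream of mTOR, rose by 0.084 ± 0.030 (edgeR adjusted p = 0.0142). Its lowest, median and highest levels at P22 were 373, 412 and 438 CPM in control wildtype animals, 394, 436 and 532 CPM in separated wildtype animals, 395, 422 and 523 CPM in control knockout animals and 374, 429 and 538 CPM in separated knockout animals. At P66 they were 421, 443 and 512 CPM in control wildtype animals, 408, 449.7 and 481 CPM in separated wildtype animals, 418, 444 and 479.6 CPM in control knockout animals and 426, 484 and 598 CPM in separated knockout animals. All group medians were higher at P66, and the ranges overlapped in every group. In neither cohort alone did Rps6 pass the threshold (0.10 and 0.061).

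Rpl5 and Rpl11, which together can bind Mdm2 and so link the ribosome to p53, did not pass the test. Rpl5 differed by 0.015 ± 0.023 between the ages (edgeR adjusted p = 0.597) and Rpl11 by 0.034 ± 0.030 (edgeR adjusted p = 0.348). The lowest, median and highest levels of Rpl5 at P22 were 478, 492 and 525 CPM in control wildtype animals, 481, 504 and 622 CPM in separated wildtype animals, 458, 515 and 539 CPM in control knockout animals and 458, 491 and 603 CPM in separated knockout animals. At P66 they were 486, 498 and 532 CPM in control wildtype animals, 464, 512 and 544 CPM in separated wildtype animals, 472, 511 and 531 CPM in control knockout animals and 484, 511 and 586 CPM in separated knockout animals. For Rpl5 the median was higher at P66 in 3 of 4 groups, and the ranges of the ages overlapped in all 4 groups. The levels of Rpl11 at P22 were 304, 332 and 359 CPM in control wildtype animals, 321, 344 and 439 CPM in separated wildtype animals, 310.2, 343 and 410.3 CPM in control knockout animals and 293, 347 and 449 CPM in separated knockout animals. At P66 those of Rpl11 were 332, 347 and 379.6 CPM in control wildtype animals, 320.5, 354 and 376 CPM in separated wildtype animals, 326, 345 and 373 CPM in control knockout animals and 329, 366 and 457 CPM in separated knockout animals. For Rpl11 the median was higher at P66 in all 4 groups, and the ranges of the ages overlapped in all 4 groups. Among the other genes that were not called, Rpl7 had the lowest value, -0.058 ± 0.027 (edgeR adjusted p = 0.0642).

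Levels per coding kilobase and lengths were set beside the direction of change. The 14 that rose lay between 587 and 1024 CPM per coding kilobase with a median of 859, the 5 that fell between 375 and 615 with a median of 518, and the other 15 between 486 and 690 with a median of 601. Coding lengths were 249 to 747 bases in the genes that rose, 384 to 951 in those that fell and 345 to 891 in the others. These are descriptions of genes chosen by their change with age and carry no test. The levels also depend on the use of coding length as the divisor.

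In the make-up of the ribosomal protein mRNAs Rplp0 set the ages apart without overlap, where by level none of the 34 genes did. Here each gene was expressed as a share of the summed counts of the 34 genes in the same library, which removes any factor common to all of them. Rplp0 took 4.27 to 4.93% of this sum at P22 (median 4.61%, n = 38) and 3.42 to 3.88% at P66 (median 3.67%, n = 31). All 31 P66 libraries lay below all 38 P22 libraries. Rplp0 was the 1 gene of 34 without overlap, where 0.519% of the 7131 tested genes had none when divided by the same sum. For genes outside the 34 this division can add spread instead of removing it, so that share is not a like comparison. By CPM 0.505% of all tested genes had none.
Rpl27a took a median of 3.78% at P22 (up to 3.96%) and 4.14% at P66 (from 3.96%), and 30 of 31 P66 libraries lay above every P22 library. The same was true of 27 P66 libraries for Rps27, 25 for Rpl9 and 23 for Rpl21. In the other direction, 26 P66 libraries lay below every P22 library for Rps9 and 26 for Rpl7a, 16 for Rps20 and 14 for Rpl18. Such counts of libraries were not made for the levels or for all tested genes. Rpl11 had medians of 3.05% at P22 and 3.05% at P66. Shares add to 100%, so a lower share of 1 gene raises those of the rest.

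**Figure D3:**
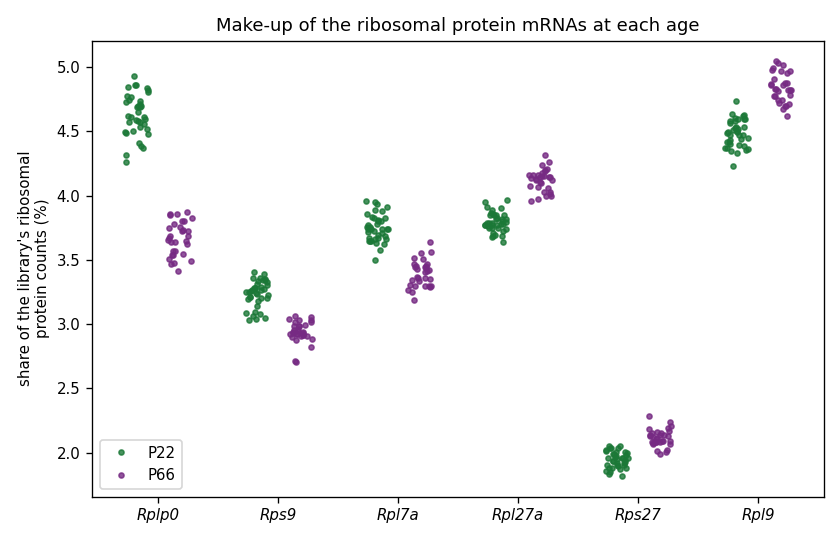
Share of 6 genes in the summed counts of the 34 ribosomal protein genes (y axis, percent, not starting at 0) in each library at P22 (green, 38 points per gene) and P66 (purple, 31 points per gene). The Rplp0 points of the ages do not overlap, and those of Rpl27a overlap by 1 library at P66.

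Group by group, fewer genes passed the test, with fewer animals in each contrast. In control wildtype animals 5 of the 34 genes rose and 1 fell between P22 and P66 (8.32% of all tested genes rose and 10.5% fell, 18.8% in all), with a median change of 0.11. Rps19 changed by 0.23 ± 0.078, Rpl27a by 0.21 ± 0.061, Rps27 by 0.21 ± 0.070, Rpl9 by 0.20 ± 0.059 and Rpl21 by 0.17 ± 0.062 (log2, SE). In separated wildtype animals 1 rose and 4 fell (14.4% of all rose and 16.4% fell, 30.8% in all, median 0.0033). Rps15a was the gene that rose, by 0.10 ± 0.035, and Rplp0, Rpl7a, Rps9 and Rpl22 fell.
In control knockout animals none rose and 3 fell, namely Rplp0, Rpl7a and Rpl22 (13.3% of all rose and 14.9% fell, 28.1% in all, median -0.0022). In separated knockout animals Rpl27a, Rpl21 and Rpl9 rose and Rplp0 fell (8.16% of all rose and 11.1% fell, 19.2% in all, median 0.093). Over all animals of both cohorts Rplp0 was called lower in each of the 4 groups, with changes of -0.22 ± 0.069, -0.37 ± 0.058, -0.39 ± 0.067 and -0.21 ± 0.068 in the order given. These calls differed in how well they held. With 1 library left out, Rplp0 stayed called in all 69 fits in the first 3 groups and in 65 of 69 in separated knockouts, where its call ended without the P22 animal C2-23 or the P66 animal C1-54, C2-53 or C2-84 (edgeR adjusted p up to 0.112). In control wildtypes Rplp0 was called in neither cohort alone (-0.19 with an edgeR adjusted p of 0.353 and -0.25 with an edgeR adjusted p of 0.0648). In separated knockouts it was called in cohort 2 alone and not in cohort 1 alone (-0.14 with an edgeR adjusted p of 0.558). With the marker scores in the fit it was called in neither of these groups (-0.094 with an edgeR adjusted p of 0.493 and -0.10 with an edgeR adjusted p of 0.441).

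Whether the age change itself differed between genotypes or rearing conditions was tested with interaction terms. None of the 34 genes was called for genotype (0% of all tested genes called by edgeR, 153 genes with unadjusted p under 0.05), rearing (0.0421% called) or both together (0.014% called). For genotype the smallest p belonged to Rpl7a (0.040 ± 0.056) and Rplp2 (-0.049 ± 0.063), and for rearing to Rplp2 (-0.062 ± 0.063) and Rps15a (0.027 ± 0.040). In the term for both together all 34 log2 values were above 0 (49.4% of all tested genes were), with a median of 0.20. The largest belonged to Rpl28 (0.35 ± 0.16) and Rplp0 (0.34 ± 0.13), and 5 genes had an unadjusted p under 0.05, with a smallest edgeR adjusted p of 0.312. The median was 0.091 without the 5 libraries named above, 0.36 in cohort 1 alone and -0.036 in cohort 2 alone. With deviations shared by nearly all 34 genes in a library, a count of genes of 1 sign is not 34 separate observations. Of the choroid plexus markers 10 of 10 were also above 0 in this term, with a median of 1.37, as were 12 of 12 myelin markers with a median of 0.56. Their part in it was not tested.

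The calls per group depended on single libraries. In control wildtypes Rpl21 kept its call in 26 of the 69 fits that left out 1 library (edgeR adjusted p up to 0.123), Rps19 in 62 and Rps27 in 65, and Rpl27a and Rpl9 in all. In separated wildtypes Rps9 kept it in 57 of 69 (up to 0.136, without the P22 animal C1-51) and Rpl22 in 68, and Rpl7a and Rps15a in all. In control knockouts Rpl7a kept it in 65 and Rpl22 in 68. In separated knockouts Rpl27a kept it in 68, Rpl21 in 67 and Rpl9 in 63, and the call of each of the 3 ended without the P66 animal C1-56. The counts moved too. In control wildtype animals the 6 calls dropped to 3 without the P22 animal C1-56 or without any 1 of the P66 animals C1-15, C1-58 and C2-58 of that group. In separated knockout animals the 4 calls dropped to 1 without the P66 animal C1-56 (median 0.044) and to 2 without the P22 animal C1-52, and rose to 11 without the P22 animal C2-23 (median 0.13). They rose to 8 without the P22 control knockout animal C1-4 or the P22 separated wildtype animal C1-51. In control knockout animals the 3 calls dropped to 1 without the P22 animal C1-4, and the median of -0.0022 became 0.027. Without the P22 animal C1-21 this median was -0.026. The calls rose to 5 when any 1 of 9 libraries was left out: P22 C1-21 and C1-55 and P66 C1-30 and C2-76 of that group, P22 control wildtype C1-56, P22 separated knockout C2-36, P66 separated knockout C1-56 and C2-84, and P66 separated wildtype C1-46. Without the 5 libraries that stood apart, 10 genes rose and 1 fell in control wildtypes (9.78% and 13.0% of all tested genes). In separated wildtypes 7 rose and 5 fell (15.8% and 18.3% of all). In control knockouts 5 rose and 2 fell (10.8% and 14.7% of all), and in separated knockouts 8 and 1 (9.23% and 12.4% of all). The libraries were left out for their level of these same genes, so these counts are not an independent check.

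**Figure D4:**
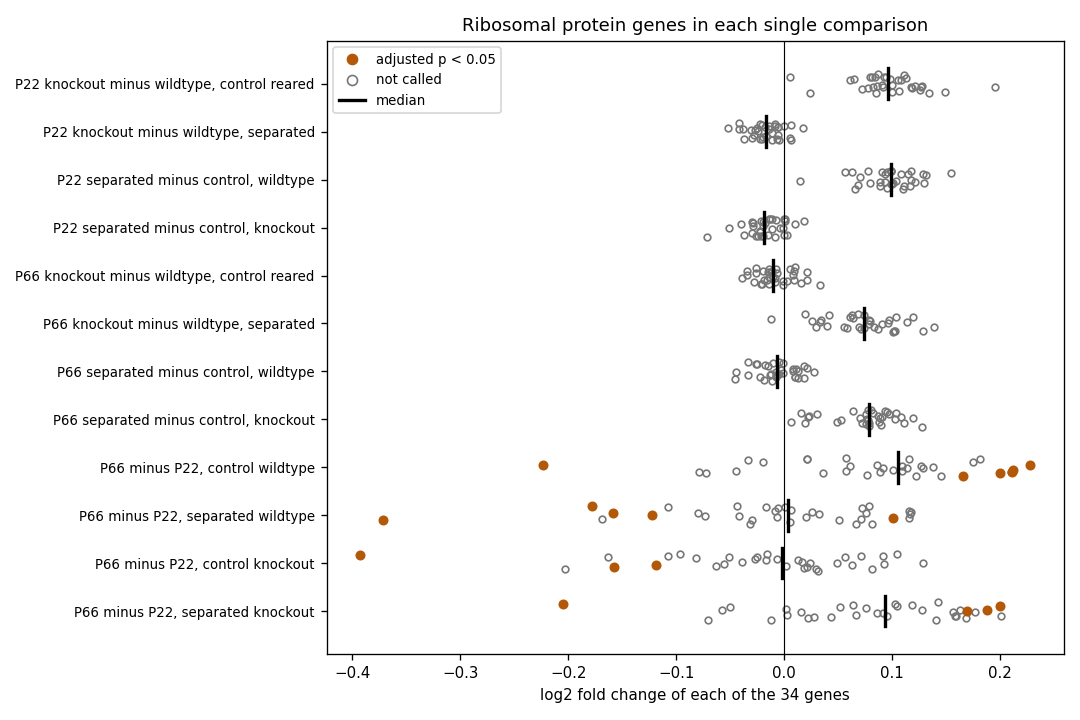
Log2 fold change (x axis) of each of the 34 genes (points) in the 12 comparisons between 2 single groups (rows). Filled points passed the threshold, open points did not, and vertical bars are medians. Called genes occur in the 4 comparisons between ages and in none of the 8 comparisons within an age.

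At P22 neither genotype nor rearing changed the level of any ribosomal protein gene past the threshold. In none of the 7 contrasts at P22 did edgeR call any of 7036 tested genes (0%), and 139 to 845 genes had an unadjusted p under 0.05, among them at most 1 of the 34. DESeq2 and limma-voom called none of the 34 either. Knockout minus wildtype, averaged over rearing, had a median over the 34 genes of 0.044 (0.0059 without the 5 libraries, -0.019 in cohort 1 and 0.097 in cohort 2). Separated minus control, averaged over genotype, had one of 0.041 (0.033 without the 5 libraries, 0.048 in cohort 1 and 0.016 in cohort 2). By single groups the values differed. The median of knockout minus wildtype among control animals was 0.097 (0.039 without the 5 libraries, 0.051 in cohort 1 and 0.15 in cohort 2), with 34 of 34 genes above 0 (51% of all tested genes). Among separated animals it was -0.017 (-0.026 without the 5 libraries, -0.085 in cohort 1 and 0.035 in cohort 2), with 4 of 34 above 0 (49.7% of all). Separated minus control gave 0.099 (0.067 without the 5 libraries, 0.11 in cohort 1 and 0.079 in cohort 2) among wildtypes, with 34 of 34 above 0 against 51.9% of all. It gave -0.018 (0.00097 without the 5 libraries, -0.017 in cohort 1 and -0.042 in cohort 2) among knockouts, with 5 of 34 above 0 against 54.7%. The interaction had a median of -0.12 with none of 34 above 0 (50.7% of all). Without the 5 libraries the interaction was -0.060, and it was -0.13 and -0.12 in cohorts 1 and 2. Of 10 choroid plexus markers none was above 0 in this interaction (median -1.24), and their part in it was not tested. These contrasts share groups of animals.

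Rpl28, a large-subunit protein absent from baker's yeast, gave the largest single values. Its lowest, median and highest levels at P22 were 182, 228 and 249 CPM in control wildtype animals, 225, 249 and 283 CPM in separated wildtype animals, 218, 254 and 326 CPM in control knockout animals and 185, 242 and 316 CPM in separated knockout animals. At P66 they were 229, 234 and 264 CPM in control wildtype animals, 195, 234 and 262 CPM in separated wildtype animals, 215, 238 and 262 CPM in control knockout animals and 209, 246 and 349.9 CPM in separated knockout animals. At P22 the median was lowest in control wildtypes, and the ranges of all 4 groups overlapped. Its interaction at P22 was -0.23 ± 0.11 (log2, SE, edgeR adjusted p = 0.591), and its difference between knockout and wildtype controls 0.20 ± 0.082 (edgeR adjusted p = 0.393). The second smallest p of the interaction belonged to Rplp0 (-0.16 ± 0.091, edgeR adjusted p = 0.613). Rplp2, the acidic partner of Rplp0 in the stalk, differed by 0.13 ± 0.063 between separated and control wildtypes (edgeR adjusted p = 0.759). Rplp0 and Rpl28 led the rearing contrast among knockouts with -0.051 ± 0.064 and -0.072 ± 0.078. Rps27 and Rplp2 led the average rearing contrast with 0.067 ± 0.050 and 0.058 ± 0.044, and Rpl28 and Rps13 the average genotype contrast with 0.082 ± 0.057 and 0.056 ± 0.039. Among separated animals Rpl7 and Rpl5 led the genotype contrast with -0.052 ± 0.053 and -0.042 ± 0.045.
Rplp2 had P22 values of 199, 222 and 232 CPM in control wildtype animals, 212, 241 and 287 CPM in separated wildtype animals, 209, 238 and 297 CPM in control knockout animals and 191, 236 and 295 CPM in separated knockout animals. It had P66 values of 225, 238 and 269.6 CPM in control wildtype animals, 225, 236 and 250.5 CPM in separated wildtype animals, 214, 231 and 262 CPM in control knockout animals and 205, 239 and 308 CPM in separated knockout animals. For Rplp2 the median was higher at P66 in 2 of 4 groups, and the ranges of the ages overlapped in all 4 groups. Rps13, of the small subunit, had P22 values of 196, 212 and 219 CPM in control wildtype animals, 195, 218 and 257 CPM in separated wildtype animals, 205, 216 and 264 CPM in control knockout animals and 195, 218 and 256 CPM in separated knockout animals. Its levels at P66 were 207, 211 and 229.8 CPM in control wildtype animals, 195, 219 and 234 CPM in separated wildtype animals, 199.5, 218 and 247 CPM in control knockout animals and 201, 218 and 276 CPM in separated knockout animals. For Rps13 the median was higher at P66 in 2 of 4 groups, and the ranges of the ages overlapped in all 4 groups. Rpl7, of the large subunit, had P22 values of 434, 463 and 493.1 CPM in control wildtype animals, 448, 483 and 622 CPM in separated wildtype animals, 430.1, 498 and 547 CPM in control knockout animals and 427, 471 and 561 CPM in separated knockout animals. Its levels at P66 were 425, 454 and 497 CPM in control wildtype animals, 422, 464 and 503 CPM in separated wildtype animals, 428, 449 and 493.4 CPM in control knockout animals and 416, 470.3 and 561 CPM in separated knockout animals. For Rpl7 the median was lower at P66 in all 4 groups, and the ranges of the ages overlapped in all 4 groups.

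At P66 no ribosomal protein gene was called either. Knockout minus wildtype called 0.0714% of 7001 tested genes and separated minus control 0.371% (0.129% higher and 0.243% lower), and the other 5 contrasts called none (268 to 780 genes with an unadjusted p under 0.05). DESeq2 and limma-voom called none of the 34 at this age. The median difference over the 34 genes was 0.036 (0.012 without the 5 libraries, 0.044 in cohort 1 and -0.022 in cohort 2) for genotype. It was 0.036 (0.017 without the 5 libraries, 0.042 in cohort 1 and 0.0042 in cohort 2) for rearing, each with 33 of 34 above 0 (48.7% and 48.3% of all tested genes). Knockout minus wildtype had a median of 0.074 (0.029 without the 5 libraries, 0.16 in cohort 1 and -0.093 in cohort 2) among separated animals. Among controls this was -0.010 (-0.011 without the 5 libraries, -0.075 in cohort 1 and 0.043 in cohort 2). Separated minus control had a median of 0.079 (0.036 without the 5 libraries, 0.16 in cohort 1 and -0.058 in cohort 2) among knockouts, and -0.0070 (-0.0048 without the 5 libraries, -0.069 in cohort 1 and 0.076 in cohort 2) among wildtypes. The interaction had a median of 0.085 with 34 of 34 above 0 (49% of all). It was 0.037 without the 5 libraries, of which P66 holds C1-56 of the separated knockouts, 0.23 in cohort 1 and -0.14 in cohort 2. The separated knockout group at P66 holds 5 animals of cohort 1 and 2 of cohort 2, and the sign of this interaction differed between the cohorts. Of 10 choroid plexus markers 10 were above 0 in it (median 0.36), and their part in it was not tested.

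By gene, Rpl7a had the smallest p for genotype at P66 (0.069 ± 0.034, edgeR adjusted p = 0.602), followed by Rps16 (0.054 ± 0.038). For rearing these were Rpl31 (0.070 ± 0.042, edgeR adjusted p = 0.52) and Rps15a (0.029 ± 0.021). Among separated animals Rpl7a differed by 0.13 ± 0.046 and Rplp0 by 0.14 ± 0.057 between the genotypes (edgeR adjusted p = 0.397 and 0.415). Rplp0 had 0.17 ± 0.085 in the interaction. In the rearing contrast Rplp0 differed by 0.13 ± 0.064 among knockouts, and Rplp0 and Rps15a led that among wildtypes (-0.045 ± 0.057 and 0.028 ± 0.028). Rpl27a and Rps13 led the genotype contrast among controls (-0.039 ± 0.046 and 0.033 ± 0.050).
Rps16, whose tail reaches toward the site where tRNA reads the mRNA, had P22 values of 215, 248 and 269 CPM in control wildtype animals, 234, 253 and 327 CPM in separated wildtype animals, 219, 265 and 327 CPM in control knockout animals and 213, 263 and 331 CPM in separated knockout animals. Its levels at P66 were 249, 262 and 275 CPM in control wildtype animals, 226, 263 and 283 CPM in separated wildtype animals, 242, 262 and 284 CPM in control knockout animals and 245, 269 and 353 CPM in separated knockout animals. For Rps16 the median was higher at P66 in 3 of 4 groups, and the ranges of the ages overlapped in all 4 groups.

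The spread that these contrasts were set against was shared by the family. In 6 of 38 P22 libraries all 34 genes lay above their median at that age and in 6 none did, and in 3 and 3 of 31 P66 libraries the same held. At least 32 of the 34 were above in 11 libraries at P22 and 9 at P66, and at most 2 in 11 and 6. Among all tested genes the share above the median of the age lay between 45.1 and 53.5% in every library. TMM scaling centres the bulk of the genes in each library, so shares in this range are largely set by it. The SD between animals of a group of the mean log2 CPM over the 34 genes was 0.12, nearly that of a single gene, so averaging over the family removed little of the spread. Libraries with at least 32 genes above occurred in 7 of the 8 groups and libraries with at most 2 above in all 8. The exception was control wildtype at P22, where the 34 genes took 0.974 to 1.17% of the library. Over all libraries the widest ranges were in separated knockouts, at P22 0.988 to 1.42% and at P66 1.05 to 1.48%. Without the 5 libraries that stood apart these were 0.988 to 1.22% and 1.05 to 1.28%, beside 1.01 to 1.24% in control knockouts and 1.06 to 1.25% in separated wildtypes at P22.

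**Figure D5:**
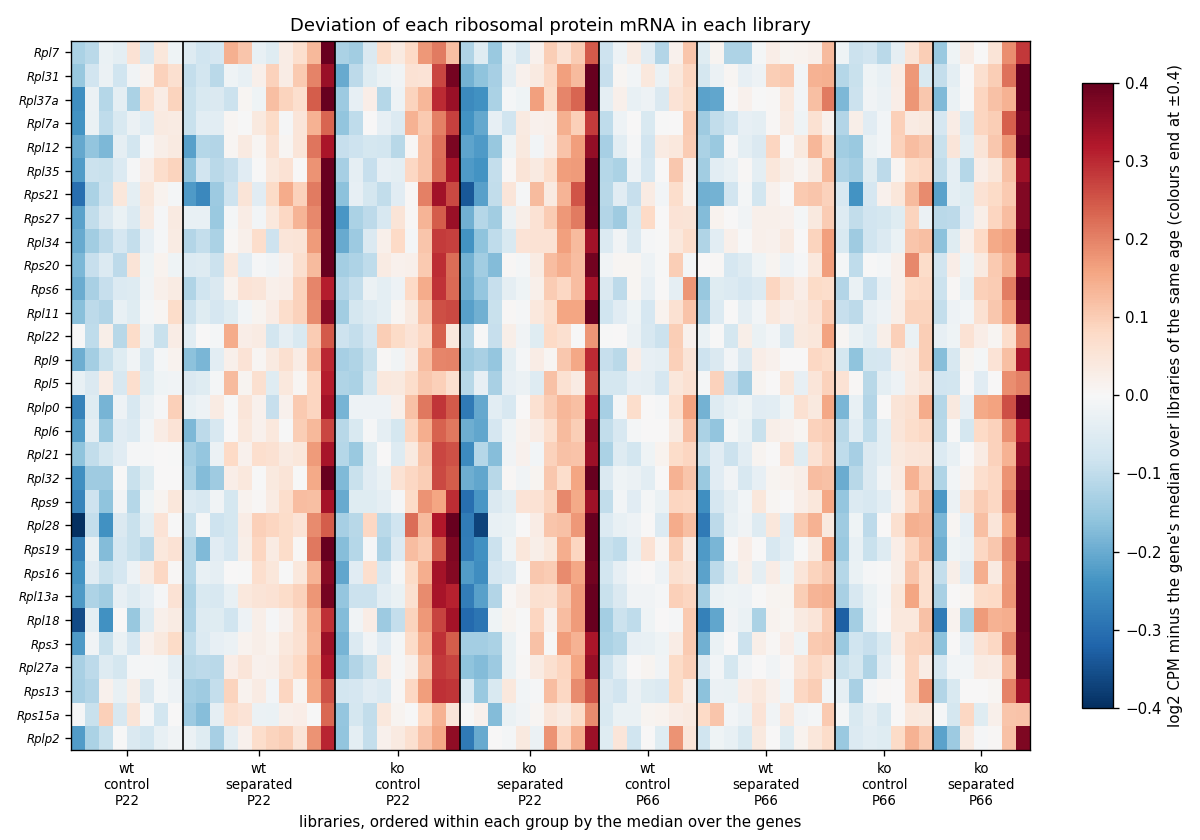
Deviation of 30 of the 34 genes (rows) in each library (columns) from that gene's median over libraries of the same age, on the log2 CPM scale, with red above and blue below. Libraries are ordered within each of the 8 groups by the median over the 34 genes. In 37 of the 69 columns at most 2 of the 34 genes went against the rest, and the 5 darkest red columns are the libraries that stood apart, 1 in separated wildtype, 2 in control knockout and 1 in separated knockout animals at P22, and 1 in separated knockout animals at P66.

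The genes did not share this deviation equally. The SD between animals of a group was smallest in Rps15a (0.077), Rpl22 (0.081) and Rpl5 (0.090), and largest in Rps21 (0.17), Rpl18 (0.16) and Rpl28 (0.16). Nuclear genes of other energy and translation systems went the same way. In the 20 libraries with at least 32 ribosomal protein genes above, the mean deviation of 36 mitochondrial ribosome genes was above 0 in 20 and that of 34 oxidative phosphorylation genes in 18. In the 17 libraries with at most 2 above, it was above 0 in 1 and 3. The lists had medians of 0.044 and 0.069 in the high libraries and -0.040 and -0.073 in the low ones. In the 5 libraries that stood apart the mitochondrial ribosome list was 0.13 to 0.21 above, where the other 64 lay between -0.060 and 0.093. The oxidative phosphorylation list was 0.12 to 0.30 in the 5 and -0.14 to 0.12 in the other 64. The totals of the 5, 13.3 to 14.1 M counts, were in the middle of the range.
Scores of marker lists of cell types were above 0 in some libraries of either kind. The choroid plexus score was above 0 in 7 of the 20 high and 8 of the 17 low libraries, myelin in 10 and 6, ependyma in 12 and 6 and neurons in 7 and 11. In the 5 libraries that stood apart the choroid plexus score was below 0 in all, at -2.16 to -0.022, and in the other 64 it ran from -3.42 to 1.48. The neuron score was -0.28 to 0.17 in the 5 and -0.13 to 0.18 in the other 64. For myelin the ranges were -0.41 to 0.80 and -0.48 to 0.61, and for ependyma -0.34 to 0.63 and -1.15 to 0.76. The neuron score of -0.28 and the myelin score of 0.80 both belonged to the P66 separated knockout animal C1-56. Of 17 choroid plexus markers 10 were held, none was at 0 throughout, and their summed level ran from 67.6 to 706 CPM. The part of these lists in the shared deviation was not tested. In bulk tissue fewer cells of a type and less RNA per cell cannot be told apart.

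Cell-type markers also moved with age beside the ribosomal protein genes. Of 12 tested myelin genes 10 fell and 1 rose between P22 and P66, with a median of -1.06, and their summed level had group medians of 3686 to 4526 CPM at P22 and 2109 to 2306 CPM at P66. All 6 tested genes of newborn neurons and proliferation fell (median -0.85). Of 10 choroid plexus genes 1 fell and none rose. Of all tested genes 26.2% rose and 25.8% fell. With choroid plexus and myelin scores in the fit, 7 ribosomal protein genes rose and 2 fell with age, Rplp0 by -0.18 (edgeR adjusted p = 0.0325) and Rpl22 by -0.13 (edgeR adjusted p = 0.0198). Of the genes that rose, Rps19, Rpl37a, Rpl31, Rpl21, Rpl35, Rpl12 and Rps15a lost their call in it, with values of 0.057 to 0.20 (edgeR adjusted p from 0.0503 to 0.35). The myelin score differs between the ages, so this fit also takes up part of the age difference, and 7.99% of all tested genes rose and 10.3% fell in it.

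Genes that build the ribosome or control its mRNAs changed by at most 0.22 on the log2 scale between the ages. Among all tested genes 26.2% rose and 25.8% fell, and the counts below were not tested against these shares. Of 22 tested ribosome biogenesis genes 10 rose and 3 fell, with a median of 0.050. Noc2l and Nop14, needed for early subunit assembly, rose by 0.16 ± 0.021 and 0.15 ± 0.023. Surf6 and Nop10, a protein of the pseudouridylation complex, fell by 0.14 ± 0.019 and 0.16 ± 0.030. Of 6 tested RNA polymerase I genes 2 rose, Taf1a by 0.13 and Polr1b by 0.078, and none fell. Among 3 translation factors with TOP mRNAs Eif3k rose by 0.090, and Eif3f (0.056) and Eef1b2 (0.013) did not pass the test. Of 6 genes in the control of TOP mRNAs 3 rose, Rragd by 0.22 ± 0.032, Mtor by 0.070 and Tsc1 by 0.041. Mitochondrial ribosome genes rose in 10 and fell in 3 of 36 cases (median 0.0084), and oxidative phosphorylation genes rose in 3 and fell in 12 of 34 (median -0.040).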

How the data were processed

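RNA of the hippocampus of 69 mice was sequenced, 1 library per animal. The authors deposited raw read counts per gene, not normalized, in 1 table with a column per animal. The submitters' processing notes name FastQC (version 0.11.4), cutadapt (1.16), edgeR without a version, and limma (3.34.9). Aligner, read counter, strandedness and build were not given in the sources used here. Of the identifiers 99.55% were found in GENCODE M21, and all 34 genes had the same position there, on GRCm38. The table as held gave 9930 complete records and 1 broken record, which was left out. Totals are sums over the held records, not full depths. Among 272 pairs of libraries within groups, chi-square per degree of freedom was 4.6 to 91.8, so none was a repeat of another.

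Counts were fitted in R 4.3.3 with edgeR 4.0.16 (TMM, filterByExpr with minimum count 10 and minimum total 15, robust quasi-likelihood), with a term per group and for cohort, within each age and over all 69 libraries for age. P-values were adjusted by Benjamini-Hochberg over all tested genes, with a threshold of 0.05. The alternatives were DESeq2 1.42.0, limma-voom (limma 3.58.1), RLE scaling, other filters, no cohort term, each cohort alone, marker scores as covariates, all libraries in 1 fit, a threshold of 0.1 and leaving out each library. A further pair was chosen after seeing the data, without the 5 libraries that stood apart and with the mean level of the 34 genes as a covariate. The pipeline was tested on simulated data. Log2 CPM values used a prior count of 2, and coding lengths were the annotated ones of GENCODE M21. Sequences were taken from RefSeq and read by script.

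The genes and gene lists were chosen with earlier results of these data known. Values for every group are given for those genes that have the 3 largest rises or falls with age, the 2 smallest p-values in any other comparison, or the 2 highest or lowest levels per length, and for Rplp0, Rpl5, Rpl11 and Rps6. Rpl22l1, Rps9, Rps19 and other called genes were named after their values were seen. The labels name no litters. Separation was applied to litters, so p-values are too small if littermates are alike. Genes outside the held records were not analysed here, and 4 of the 34 genes are counted but not reported singly.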

Additional observations from a re-analysis of the deposited data

Results flagged for a closer look

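For each of the 34 genes, and for their summed share, the groups of 4 to 10 animals were searched for an animal whose gap to its neighbour took an unusually large part of the group's range (Dixon's test at 95%). The P22 separated wildtypes, 11 animals with C1-51 among them, lay outside this size limit and were not searched. Of 245 groups of values 12 held such an animal, and chance alone gives about 1 in 20. The P66 separated knockout animal C1-56, one of the 5 libraries that stood apart, stood out for Rpl28 at 349.9 CPM (other 6 animals 209 to 265), Rpl27a at 622.4 CPM (454 to 521) and Rpl22 at 253.8 CPM (216 to 232). The P22 separated knockout animal C2-23, another of the 5, stood out for Rpl31 at 489.4 CPM (306 to 391) and Rps19 at 330.6 CPM (198 to 266).

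Among P66 separated wildtypes, animal C2-66 was high for Rpl22 at 247.0 CPM (others 210.3 to 228) and Rps20 at 239.0 CPM (203 to 219), and animal C1-46 was low for Rps13 at 194.8 CPM (214 to 234) and Rps27 at 218.7 CPM (244 to 264). Among P66 control wildtypes, C1-15 was high for Rps20 at 227.7 CPM (209.8 to 214) and C1-58 for Rps6 at 511.7 CPM (421 to 455). The P66 control knockout C2-76 was high for Rps27 at 262.0 CPM (230.2 to 243).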

How the results depend on the processing

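No paired analysis was possible because every cohort and rearing condition has its own numbering of animals, so a shared number names different mice. The 19 genes called between the ages became 12 in cohort 1 alone, 9 in cohort 2 alone and 9 with choroid plexus and myelin scores as covariates, and the cause was not tested, although each cohort holds fewer samples. Leaving out 1 library gave 17 to 22 calls. Every other setting gave a count within 1.5 times. No ribosomal protein gene was called in any contrast within an age, or for an age interaction, under any setting run. The median of the P66 interaction was 0.23 in cohort 1 and -0.14 in cohort 2. That of age by genotype by rearing was 0.36 in cohort 1, -0.036 in cohort 2 and -0.0051 with the mean level of the 34 genes as a covariate.

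Among the genes with values for every group and those called, 15 alternative values of the age change had the other sign. With the marker scores Rps9 was 0.018, Rpl7 0.0058 and Rpl28 0.14. Rpl28 was 0.0024 with limma-voom, 0.0090 with at least 1 CPM in 7 libraries, 0.0013 without a cohort term, 0.029 in cohort 1 alone and 0.011 without the 5 libraries. In cohort 2 alone Rps13 was -0.053, Rpl5 -0.015 and Rplp2 -0.023, and with the mean level of the 34 genes as a covariate they were -0.027, -0.0053 and -0.011. Rps13 was -0.0033 with no low-count filter. Depth was ample for these genes, whose lowest count was 1768.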
